A study of Mus musculus with 12 samples.

Results

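Fat cells, or adipocytes, carry a set of genes for storing and releasing lipid, and 34 of these genes were followed through 12 mouse tumours. They were taken from a fixed list of fat cell identity, lipid droplet, adipokine and thermogenic genes, found by symbol among the 54532 genes of the files, and 30 of the 34 were among the 15650 genes abundant enough to test. The tumours were malignant peripheral nerve sheath tumours (MPNSTs), sarcomas that arise from the sheath of nerves, and their RNA was sequenced in bulk. All 12 came from mice labelled as strain C57B/6 and genotype WT, in which an adenovirus delivered Cas9 against Nf1 and against Cdkn2a, which the labels write as Cdk2na. The regressing group (4 tumours) was harvested during regression, from mice given 100 mg/kg palbociclib, an inhibitor of cell cycle kinases, with 1 mg/kg mirdametinib, a MEK inhibitor, daily by oral gavage. The terminal combination group (4 tumours) had the same drugs at the same doses and was harvested at the terminal time point. The vehicle group (4 tumours) was given the vehicle alone and was also harvested at the terminal time point. The stage of harvest sets the regressing group apart from both others, so it cannot be told apart from the state of the tumour. No label ties each tumour to a mouse of its own, so the p-values here reflect spread among these samples, which may be technical in part. Nor do the labels say what tissue around a tumour was taken with it.

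A mature fat cell holds a large lipid droplet coated by perilipins and CIDE proteins. It imports fatty acids and glucose, joins them into triglyceride, breaks the triglyceride down again by a chain of lipases when hormones call for it, and secretes adipokines into the blood. The nuclear receptor Pparg and the C/EBP factors install this programme. White fat cells store lipid and secrete leptin and resistin, whereas brown and beige fat cells burn it through the uncoupling protein Ucp1. Fat lies between muscle layers, under the skin and around nerves in the mouse, and skeletal muscle shares several of the metabolic genes, among them Slc2a4, Gpd1, Car3, Cox8b, Ppargc1a and Plin5.

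The stretches of DNA just before 3 of the genes are shown because the results turn on these genes: Plin1 was the gene with levels most like those of Adipoq across the 12 tumours, and Ucp1 had no read in any. Each runs 5′ to 3′ in the direction of the gene, from 250 bases before the start of transcription to 50 bases after it, from RefSeq on the build GRCm38.p6. Capitals mark matches to AGGTCA, the core of nuclear receptor sites, or TTGCNNAA, a C/EBP type motif, both searched on both strands. The windows are chr16:23146286-23146585 on the plus strand for Adipoq, chr7:79732727-79733026 on the minus strand for Plin1 and chr8:83290098-83290397 on the plus strand for Ucp1.
Adipoq: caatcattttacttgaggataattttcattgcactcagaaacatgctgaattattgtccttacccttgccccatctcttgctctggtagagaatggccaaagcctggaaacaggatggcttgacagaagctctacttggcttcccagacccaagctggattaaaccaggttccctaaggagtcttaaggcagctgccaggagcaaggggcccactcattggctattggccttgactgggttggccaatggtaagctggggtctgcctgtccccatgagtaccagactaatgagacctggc
Plin1: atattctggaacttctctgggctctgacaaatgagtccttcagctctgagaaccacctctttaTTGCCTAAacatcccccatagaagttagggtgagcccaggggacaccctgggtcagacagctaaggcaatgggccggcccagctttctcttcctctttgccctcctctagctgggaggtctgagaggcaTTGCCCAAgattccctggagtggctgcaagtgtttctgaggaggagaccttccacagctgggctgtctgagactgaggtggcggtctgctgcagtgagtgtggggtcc
Ucp1: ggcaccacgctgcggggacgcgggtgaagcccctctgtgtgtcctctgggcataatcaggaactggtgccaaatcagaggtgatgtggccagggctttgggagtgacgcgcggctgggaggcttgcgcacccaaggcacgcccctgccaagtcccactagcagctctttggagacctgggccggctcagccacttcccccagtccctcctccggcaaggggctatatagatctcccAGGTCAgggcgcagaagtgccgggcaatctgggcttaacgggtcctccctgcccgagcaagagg
Plin1 held TTGCCTAA at -187 and TTGCCCAA at -58 from its start, Ucp1 held AGGTCA at -14, and the Adipoq window held neither motif in these letters. AGGTCA occurred in 16.3% of 32851 windows of the same length and in 8 of the 32 windows of the list, which come from 24 genes. Those 8 windows belong to 5 of the 24 genes. TTGCNNAA occurred in 10.8% of all windows and in 5 of the 32. TATAAA, the TATA box, occurred in 13.6% of all windows and in 5 of the 32. These matches describe the letters alone.

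Libraries held 13194699 to 22639625 counted reads. Levels are given as CPM, the usual depth-adjusted counts, and a count of 0 allowed up to 0.133 to 0.227 CPM for counting error only. Titles ending in FFT, which the labels do not explain, belonged to regressing replicate 1, terminal combination replicate 1 and vehicle replicates 1 and 2. Of 8 Schwann lineage markers, which the tumours' origin would carry, the summed level was 48.1 to 63.6 CPM in regressing, 31.2 to 113 CPM in terminal combination and 38.7 to 218 CPM in vehicle tumours, and Sox10, a defining factor of that lineage, was at 0 in terminal combination replicate 1 and vehicle replicates 2 and 4. In vehicle tumours the list of 34 genes was thinly expressed, with 1, 7, 12 and 5 genes at a count of 0 in replicates 1 to 4, against 2, 2, 1 and 1 in regressing replicates 1 to 4 and 3, 3, 2 and 2 in terminal combination replicates 1 to 4.

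**Figure D1:**
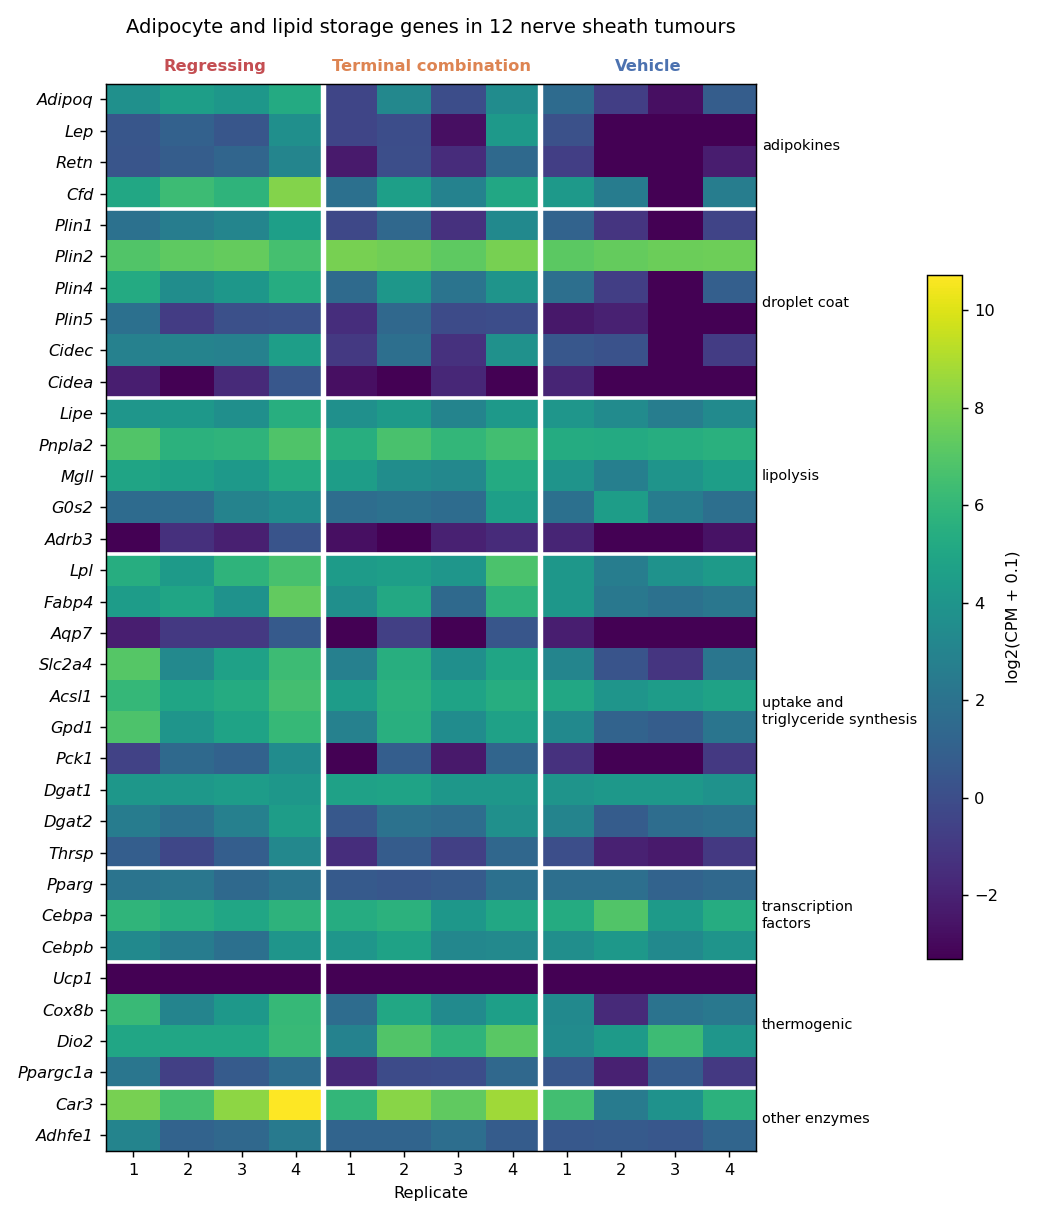
Level of the 34 genes in each tumour, as log2 of CPM plus 0.1 (colour), with tumours in columns by group and replicate and genes in rows by role. Adipoq, Cfd, Plin1, Plin4 and Cidec are brighter in the 4 regressing tumours than in the vehicle tumours, Plin2 is bright in all 12, and Ucp1 is dark in all 12.

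The genes spanned a wide range of level. Per kilobase of exon, the highest means in regressing tumours were those of Car3 (204 CPM per kb), Cfd (119.9 CPM per kb) and Cox8b (115 CPM per kb). Replicate 4 weighed heavily in the first 2, with 1688 CPM of Car3 and 273 CPM of Cfd. The other regressing tumours had 94.2 to 322 CPM of Car3 and 33.9 to 78.8 CPM of Cfd. In vehicle tumours the highest means were those of Plin2 (49.996 CPM per kb), Cebpa (21.2 CPM per kb) and Pnpla2 (14.1 CPM per kb). The Cebpa mean leaned on vehicle replicate 2, at 121 CPM against 20.2 to 41.8 CPM in the other vehicle tumours. Adipoq, the gene of the fat cell hormone adiponectin, averaged 16.6 CPM per kb in regressing, 4.02 CPM per kb in terminal combination and 0.933 CPM per kb in vehicle tumours.

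Regressing tumours were set against vehicle tumours to ask how tumours shrinking under both drugs differ from untreated ones. Some genes found in mature fat cells, Adipoq, Cfd, Retn, Plin1, Plin4 and Cidec, were higher in all 4 regressing tumours than in any vehicle tumour, by 3.73 to 4.26 on the log2 scale. Of the 9 genes of the list that white and brown fat cells share, 5 parted in this way. For the others, Lipe, Fabp4, Pparg and Cebpa, the groups overlapped. By edgeR's quasi-likelihood test with Benjamini-Hochberg adjustment over all genes, none of the 30 genes passed, the lowest adjusted p being 0.236, and no gene of the 15650 did (0%). At an unadjusted edgeR p under 0.05 there were 19 of the 30, all higher, where 6.72% of all genes were higher at that level and 6.03% lower. DESeq2, run as an alternative, called 15 of the 30 higher and 0 lower, against 2.22% and 0.857% of all genes. For 14 of the 34 genes the 4 regressing values lay above the 4 vehicle values, which 3.5% of the genes tested did, and no gene of the list lay the other way, as 4.13% of the genes tested did. The difference was above 0 for 26 of the 30 and below 0 for Plin2, G0s2, Cebpa and Cebpb, and its median was 2.40 on the log2 scale, against -0.02 over all genes tested. Without regressing replicate 4 the median was 1.49. In bulk tissue, more fat cells, more RNA per fat cell and RNA from other tissue, such as muscle, cannot be told apart.

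The DESeq2 calls depended on which libraries were in the fit. Fewer tumours lower the power for every gene, and the share of all genes called in each such fit is not given here. Without regressing replicate 1 there were 5 calls in the list, without regressing replicate 4 also 5, and without both there were 0. There were 9, 8 and 8 without vehicle replicates 2, 3 and 4, and 8 with the title ending FFT as a covariate. Over 14 such alternatives Adipoq, Plin4, Slc2a4 and Gpd1 were called in 13, Plin5 and Car3 in 12, and the other 9 called genes in 3 to 9. The fitted edgeR difference of Adipoq was 3.96 on the log2 scale without regressing replicates 1 and 4, against 4.12 with all libraries, and that of Slc2a4 was 2.31 against 4.06.

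**Figure D2:**
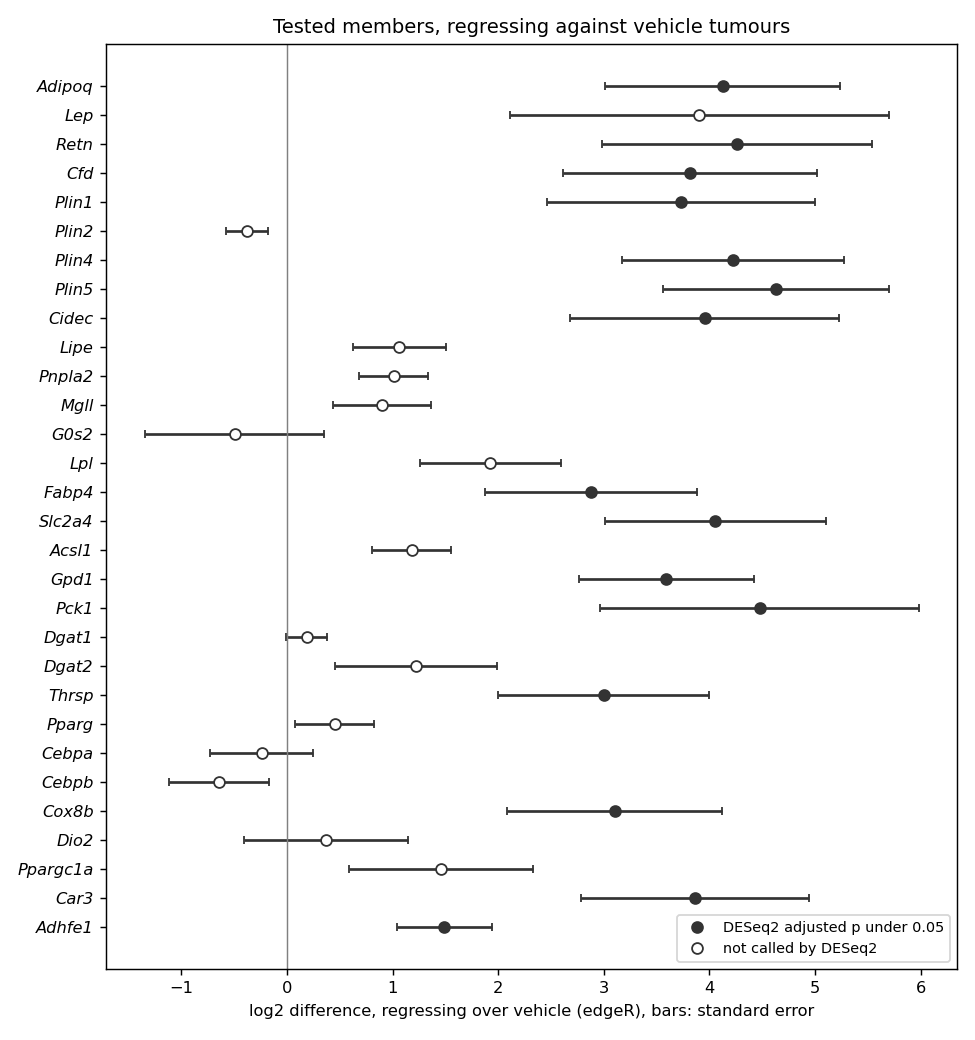
Log2 difference of each tested gene, regressing over vehicle tumours, from edgeR (points; bars are 1 standard error, 4 tumours in each group), with filled points for a DESeq2 adjusted p under 0.05. Of the 30 points, 26 lie above 0 and 15 are filled, while Plin2, G0s2, Cebpa and Cebpb lie below 0.

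Among the adipokines, Adipoq (ENSMUSG00000022878, chromosome 16, 23146536 to 23158028) had 13.2, 23.5, 17.1 and 37.8 CPM in regressing replicates 1 to 4, against 2.91, 0.50, 0.0508 and 1.69 CPM in vehicle replicates 1 to 4. The lowest regressing tumour was above the highest vehicle tumour. The log2 difference was 4.12 ± 1.11 (standard error), with an adjusted p of 0.24 by edgeR and 0.00261 by DESeq2. Cfd (adipsin, a complement factor secreted by fat) had 33.9, 78.8, 57.0 and 273 CPM in regressing replicates 1 to 4, against 19.2, 5.93, 0 and 6.18 CPM in vehicle replicates 1 to 4. The groups did not overlap, and regressing replicate 4 held several times the Cfd of the other regressing tumours. The Cfd difference was 3.81 ± 1.20 on the log2 scale, with an adjusted p of 0.271 by edgeR and 0.0225 by DESeq2. Retn (resistin) had 1.21, 1.68, 2.26 and 8.41 CPM in regressing replicates 1 to 4, against 0.513, 0, 0 and 0.117 CPM in vehicle replicates 1 to 4, a difference of 4.26 ± 1.28 on the log2 scale with a DESeq2 adjusted p of 0.0182. DESeq2 called Retn in 8 of its 14 alternatives, and edgeR called no adipokine. Lep (leptin, the satiety hormone of white fat) stood at 1.27, 1.97, 1.242 and 12.6 CPM in regressing tumours. Vehicle replicate 1 had 1.03 CPM of Lep and the other vehicle tumours had none, so the groups did not overlap, but the gap between the lowest regressing and the highest vehicle tumour was small. For Lep DESeq2 gave no adjusted p, and the unadjusted edgeR p was 0.0508.

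The droplet coat genes did not all share 1 pattern. Plin1 (ENSMUSG00000030546, chromosome 7, 79720218 to 79732903), the perilipin that gates lipolysis on the fat cell droplet, had 3.70, 6.15, 8.43 and 24.7 CPM in regressing replicates 1 to 4, against 2.14, 0.357, 0 and 0.642 CPM in vehicle replicates 1 to 4. Its groups did not overlap, with a log2 difference of 3.73 ± 1.27 and a DESeq2 adjusted p of 0.0322. Plin4, another perilipin of fat cells, stood at 38.7, 11.7, 16.9 and 41.4 CPM in regressing tumours, against 3.38, 0.50, 0 and 1.81 CPM in vehicle tumours (difference 4.23 ± 1.05 on the log2 scale, DESeq2 adjusted p 0.00145). Cidec, which fuses small droplets into a single large one, stood at 7.07, 7.72, 7.19 and 22.9 CPM in regressing tumours, against 1.33, 1.07, 0 and 0.467 CPM in vehicle tumours (difference 3.95 ± 1.28, DESeq2 adjusted p 0.0197). All 4 regressing tumours were above all 4 vehicle tumours for both genes. Over the 14 DESeq2 alternatives Plin1 was called in 6, Cidec in 9 and Plin4 in 13. By edgeR no droplet coat gene was called (lowest adjusted p 0.236). Plin5, the perilipin of oxidative tissues such as heart and muscle, stood at 3.57, 0.465, 0.976 and 1.08 CPM in regressing tumours, against 0.0855, 0.143, 0 and 0 CPM in vehicle tumours. Its vehicle values rest on 4 reads in all, 2 in each of replicates 1 and 2, so its log2 difference of 4.63 ± 1.07 leans on very few counts.

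Plin2, the perilipin that coats droplets in nearly all cells, did not share the pattern of Plin1, Plin4 and Cidec. It had 121, 153, 169 and 96.7 CPM in regressing replicates 1 to 4, against 147, 171, 189 and 196 CPM in vehicle replicates 1 to 4. The groups overlapped, and the difference of -0.38 ± 0.20 on the log2 scale did not pass (adjusted p 0.456 by edgeR and 0.435 by DESeq2). Cidea, a droplet protein of brown fat, was too rare to test, at 0.127, 0, 0.222 and 1.31 CPM in regressing tumours and 0.171 CPM in vehicle replicate 1 with no read in the other vehicle tumours.

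The 4 lipolysis genes tested had a median difference of 0.96 on the log2 scale in regressing against vehicle tumours. Pnpla2, the lipase that takes the first fatty acid from triglyceride, had 119.9, 51.6, 55.9 and 117 CPM in regressing replicates 1 to 4, against 40.4, 38.9, 43.6 and 48.1 CPM in vehicle replicates 1 to 4. All 4 regressing values were higher, with a log2 difference of 1.01 ± 0.32, an unadjusted edgeR p of 0.00932 and a DESeq2 adjusted p of 0.0811. Lipe (hormone-sensitive lipase) stood at 16.5, 18, 12.7 and 44.1 CPM in regressing tumours, against 16.3, 10.9, 6.00 and 10.3 CPM in vehicle tumours, and the groups overlapped. Mgll, which completes the breakdown, had a difference of 0.90 ± 0.47 on the log2 scale, with regressing values of 19.0 to 39.0 CPM and vehicle values of 6.58 to 22.9 CPM. G0s2, an inhibitor of Pnpla2, stood at 2.87 to 11.3 CPM in regressing and 3.38 to 22.4 CPM in vehicle tumours, with a difference of -0.49 ± 0.85. Adrb3, the adrenergic receptor that starts lipolysis in mouse fat, was not tested and reached 1.16 CPM in regressing replicate 4 and 0.171 CPM at most in vehicle tumours. Of the 4 lipolysis genes tested, DESeq2 called none and edgeR called none, and 2 had an unadjusted edgeR p under 0.05. Both were higher, where 6.72% of all genes were higher at that level.

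Of the 9 tested genes for uptake and triglyceride synthesis, all had a difference above 0. DESeq2 called 5 of them higher, against 2.22% of all genes, and edgeR called none (lowest adjusted p 0.236). Fabp4, the fatty acid carrier of fat cells that capillaries and macrophages also make, had 21.5, 30.6, 13.9 and 159.8 CPM in regressing replicates 1 to 4, against 17.4, 4.79, 3.61 and 4.73 CPM in vehicle replicates 1 to 4. Regressing replicate 3 lay below vehicle replicate 1, so the groups overlapped (difference 2.88 ± 1.00 on the log2 scale, DESeq2 adjusted p 0.0371). Without regressing replicate 4 the difference of Fabp4 was 1.52, and DESeq2 called Fabp4 in 7 of its 14 alternatives. Lpl, which frees fatty acids from blood lipoproteins, stood at 43.3, 20.2, 56.0 and 101 CPM in regressing tumours, against 17.3, 6.15, 14.3 and 20.1 CPM in vehicle tumours, and its groups were parted by a narrow margin (difference 1.93 ± 0.67, DESeq2 adjusted p 0.0692). Slc2a4 (ENSMUSG00000018566, chromosome 11, 69942539 to 69948188), the insulin-responsive glucose transporter of fat and muscle, stood at 129.7, 9.81, 26 and 78.1 CPM in regressing tumours, against 8.43, 1.14, 0.356 and 4.55 CPM in vehicle tumours. Its groups did not overlap, but regressing replicate 2 lay close to vehicle replicate 1 (difference 4.06 ± 1.05, DESeq2 adjusted p 0.00145). Gpd1, which makes the glycerol backbone, stood at 110.2, 15.8, 28.4 and 67.0 CPM in regressing tumours, against 10.1, 2.14, 1.68 and 4.32 CPM in vehicle tumours, with the lowest adjusted p of the list by DESeq2 (difference 3.59 ± 0.83, DESeq2 adjusted p 0.0005).

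Pck1, which feeds glycerol synthesis in fat and glucose synthesis in liver, stood at 0.573, 2.73, 2.04 and 11.5 CPM in regressing tumours, against 0.299, 0, 0 and 0.408 CPM in vehicle tumours, with a DESeq2 adjusted p of 0.0489 near the threshold. Thrsp, a promoter of fat synthesis, stood at 0.697 to 9.18 CPM in regressing tumours and 0.102 to 0.941 CPM in vehicle tumours, also near the threshold (DESeq2 adjusted p 0.049). Acsl1, which activates fatty acids, had 31.0 to 90.5 CPM in regressing and 15.9 to 34.6 CPM in vehicle tumours and was not called (difference 1.18 ± 0.38, DESeq2 adjusted p 0.0701). The enzymes of the last step of triglyceride synthesis did not pass in either tool. Dgat1 differed by 0.19 ± 0.20 on the log2 scale, with 16.9 to 21.9 CPM in regressing and 14.4 to 17.7 CPM in vehicle tumours. Dgat2 differed by 1.22 ± 0.77, or by 0.39 without regressing replicate 4, with 3.48 to 22.4 CPM in regressing and 1.57 to 8.04 CPM in vehicle tumours. Aqp7, the glycerol channel of fat cells, was not tested and was found at 0.127, 0.406, 0.399 and 1.47 CPM in regressing tumours and at 0.128 CPM in vehicle replicate 1 alone among vehicle tumours.

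The transcription factors of the fat programme did not share the pattern of its products. Pparg (ENSMUSG00000000440, chromosome 6, 115360951 to 115490399), the main regulator of fat cell formation, had 4.08, 4.65, 2.66 and 4.32 CPM in regressing replicates 1 to 4, against 3.34, 3.43, 2.08 and 2.63 CPM in vehicle replicates 1 to 4. The groups overlapped, and the difference was 0.45 ± 0.37 on the log2 scale (adjusted p 0.631 by edgeR and 0.608 by DESeq2). Cebpa stood at 58.7, 43.7, 31.9 and 54.9 CPM in regressing tumours, against 40.5, 121, 20.2 and 41.8 CPM in vehicle tumours, and Cebpb at 3.55 to 15.8 CPM in regressing and 9.86 to 17.9 CPM in vehicle tumours. Their differences of -0.24 ± 0.49 and -0.64 ± 0.47 did not pass, and that of Cebpa was 0.47 without vehicle replicate 2 alone.

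**Figure D3:**
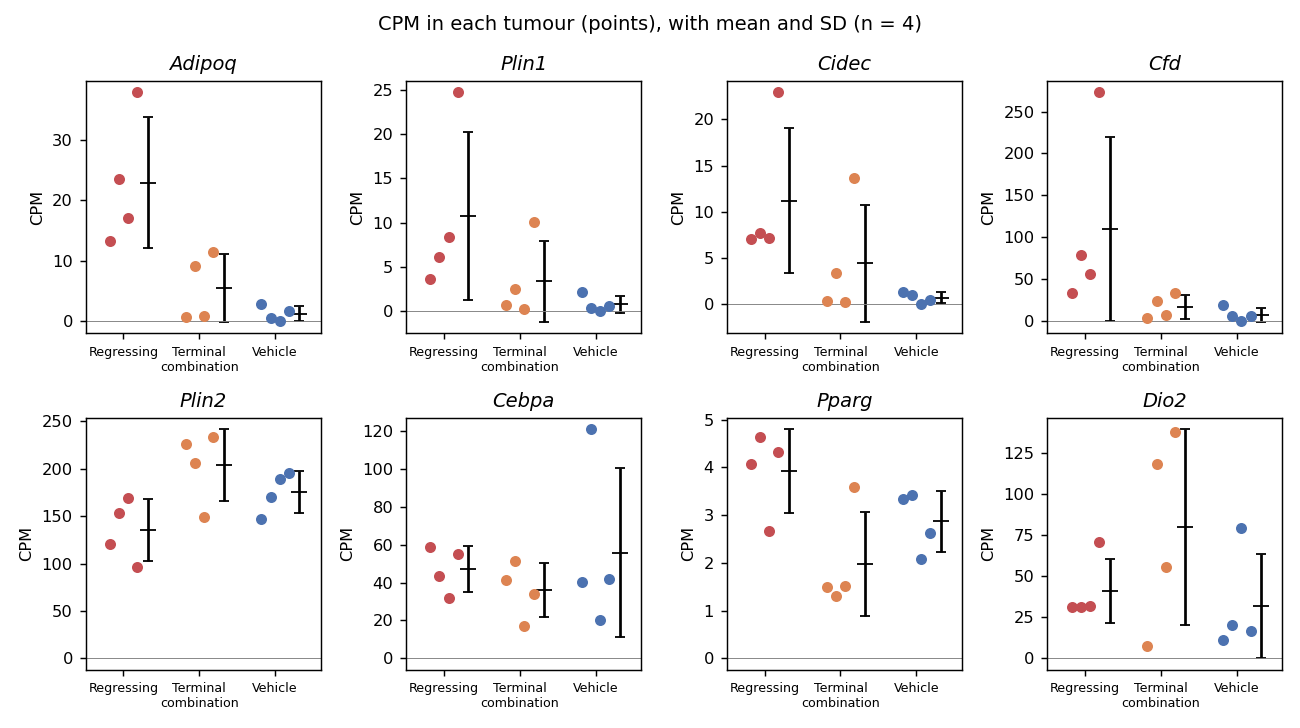
CPM of 8 genes in each tumour (points, replicates 1 to 4 from left to right in a group) with the mean and SD of the group (bars, n = 4). For Adipoq, Plin1, Cidec and Cfd the 4 regressing tumours lie above the 4 vehicle tumours, whereas for Plin2, Cebpa, Pparg and Dio2 the groups overlap.

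The genes tied to heat production gave no common picture. Ucp1 (ENSMUSG00000031710, chromosome 8, 83290352 to 83298452), the uncoupling protein that defines brown fat, had a count of 0 in all 12 tumours, which allowed at most 0.133 to 0.227 CPM in a library. Cox8b, a respiratory chain subunit of brown fat and striated muscle, had 72.6, 7.84, 18 and 67.8 CPM in regressing replicates 1 to 4, against 10.1, 0.214, 3.91 and 4.90 CPM in vehicle replicates 1 to 4. Regressing replicate 2 lay below vehicle replicate 1, and the difference was 3.10 ± 1.02 on the log2 scale (DESeq2 adjusted p 0.0288). DESeq2 called Cox8b in 9 of its 14 alternatives, and edgeR called none of these heat production genes (lowest adjusted p 0.277). Dio2, which activates thyroid hormone in brown fat and other tissues, stood at 31.2, 31.1, 31.5 and 70.4 CPM in regressing tumours, against 11.0, 20.4, 79.1 and 16.4 CPM in vehicle tumours. The highest Dio2 value of these 2 groups was that of vehicle replicate 3, and the difference of 0.37 ± 0.78 became -0.02 without regressing replicate 4. Ppargc1a, a coactivator that drives mitochondrial genes, had 0.523 to 4.52 CPM in regressing and 0.143 to 1.63 CPM in vehicle tumours and did not pass (difference 1.46 ± 0.87).

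White and brown fat genes were contrasted in each tumour by mean log2 CPM. The 9 genes that both kinds of fat cell share (Adipoq, Cfd, Plin1, Plin4, Cidec, Lipe, Fabp4, Pparg and Cebpa) had means of 3.92, 4.10, 3.77 and 5.40 in regressing replicates 1 to 4, against 2.74, 1.65, -0.59 and 1.75 in vehicle replicates 1 to 4. Every regressing tumour was above every vehicle tumour. The 5 brown fat genes (Ucp1, Cidea, Cox8b, Dio2 and Ppargc1a) had means of 1.62, 0.19, 1.02 and 2.25 in regressing tumours, against 0.46, -1.12, 0.55 and -0.19 in vehicle tumours, and the groups overlapped. Ucp1, with no read in any tumour, enters these means at a value set by the prior count. Brown minus shared level was -2.30, -3.91, -2.75 and -3.14 in regressing tumours, against -2.28, -2.77, 1.15 and -1.93 in vehicle tumours. The vehicle value above 0 came from replicate 3, in which Adipoq rested on a single read and 4 of the 9 shared genes had none. The 2 white fat genes, Lep and Retn, had means of 0.44, 0.95, 0.84 and 3.38 in regressing tumours, against -0.25, -3.18, -3.18 and -2.66 in vehicle tumours, with no overlap. Vehicle replicates 2 and 3 had no read of either gene, and replicate 4 had none of Lep. The prior count therefore sets the vehicle level of replicates 2 and 3, and that of replicate 4 in part. White minus shared level did overlap, at -3.49, -3.14, -2.93 and -2.02 in regressing tumours, against -2.99, -4.82, -2.58 and -4.41 in vehicle tumours. The values of vehicle replicates 2, 3 and 4 rest on those counts of 0. These means were not tested.

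Of the other enzymes, Car3, a carbonic anhydrase abundant in fat and slow muscle, had 232, 94.2, 322 and 1688 CPM in regressing replicates 1 to 4, against 89.0, 5.72, 14.2 and 51.3 CPM in vehicle replicates 1 to 4. The groups did not overlap, although regressing replicate 2 was just above vehicle replicate 1 (difference 3.86 ± 1.08 on the log2 scale, DESeq2 adjusted p 0.00239). Without regressing replicate 4 the difference of Car3 was 2.43. Adhfe1, a mitochondrial enzyme made in fat among other tissues, stood at 8.09, 2.09, 2.57 and 5.48 CPM in regressing tumours, against 1.37, 1.5, 1.32 and 2.28 CPM in vehicle tumours (difference 1.49 ± 0.45, DESeq2 adjusted p 0.0465). Regressing replicate 2 lay below vehicle replicate 4. Neither enzyme was called by edgeR (lowest adjusted p 0.248). DESeq2 called Adhfe1 in 4 and Car3 in 12 of its 14 alternatives.

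Regressing tumours did not carry these genes in the same order. Replicate 4 was the highest regressing tumour for 22 of the 33 genes with any read, and replicate 1 for 8: Plin5, Pnpla2, Slc2a4, Gpd1, Cox8b, Ppargc1a, Adhfe1 and Cebpa. Skeletal muscle markers were highest in replicate 1 for 10 of 14 genes and in replicate 4 for the other 4. The summed level of those 14 markers was 62224, 4642, 11589.5 and 36622 CPM in regressing replicates 1 to 4 and 10768, 663, 3081 and 3215 CPM in vehicle replicates 1 to 4. All 14 were higher on average in regressing tumours, with a median log2 difference of 3.03. DESeq2 called 8 of them higher, where it called 2.22% of all genes higher and 0.857% lower. Red blood cell markers summed to 606, 2148, 88.1 and 743 CPM in regressing tumours, against 64.1, 63.0, 133 and 374 CPM in vehicle tumours, with 7 of 7 tested above 0 and 4 called by DESeq2. Endothelial markers summed to 502 to 589 CPM in regressing and 233 to 625 CPM in vehicle tumours, macrophage markers to 1608 to 3440 CPM and 1072 to 3691 CPM, and keratinocyte markers to 2.55 to 43.1 CPM and 3.97 to 34.4 CPM, and DESeq2 called none of these 3 lists' tested genes. For the 8 Schwann lineage markers the mean log2 CPM was 1.89, 2.13, 2.204 and 1.77 in regressing replicates 1 to 4, against 1.17, 0.047, 0.41 and 1.15 in vehicle replicates 1 to 4, without overlap, although their summed CPM overlapped. Of these, 5 were above 0, each with an unadjusted edgeR p under 0.05 (6.72% of all genes were higher at that level). The other 3 were below, 2 of them with such a p (6.03% of all genes were lower). The median log2 difference was 1.82 and the lowest -2.88. DESeq2 called 2 higher, one of them Sox10 (adjusted p 0.0274), and 1 lower, Erbb3, a growth factor receptor of Schwann cells (adjusted p 0.0300). In terminal combination against vehicle tumours 6 of the 8 were above 0, with a median of 1.49 on the log2 scale, and DESeq2 called none. The part of muscle, blood, Schwann lineage cells and other tissue in the results on fat genes was not tested.

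**Figure D4:**
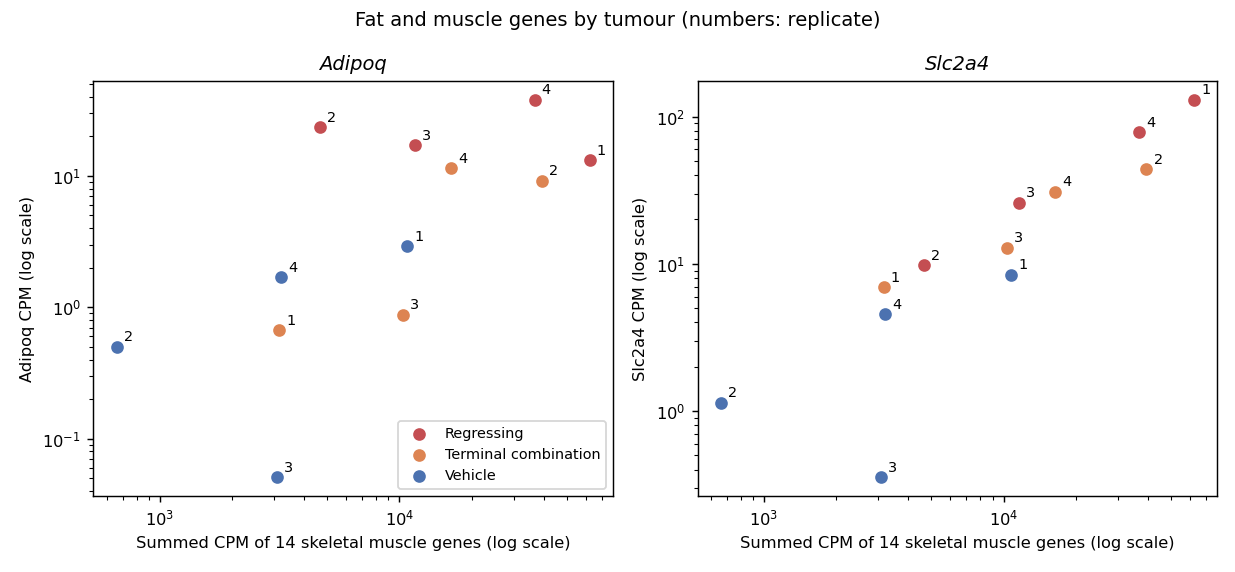
CPM of Adipoq (left) and Slc2a4 (right) against the summed CPM of 14 skeletal muscle markers in each tumour, both axes on a log scale, with the replicate number beside each point. Slc2a4 is highest, at 129.7 CPM, in the tumour with the highest muscle sum (regressing replicate 1). Adipoq stands at 23.5 CPM in regressing replicate 2, whose muscle sum is 4642 CPM. Both genes are lowest in vehicle replicate 3, Slc2a4 at 0.356 CPM and Adipoq at 0.0508 CPM. The lowest muscle sum, 663 CPM, is that of vehicle replicate 2. Among terminal combination tumours both genes and the muscle sum are highest in replicates 2 and 4.

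Terminal combination tumours were compared with vehicle tumours at the same stage of harvest. Adipoq, Plin4, Slc2a4, Gpd1 and Car3 had higher means in terminal combination tumours, with overlapping values. By edgeR none of the 30 was called (lowest adjusted p 0.819) and no gene of the 15650 was (0%), and by DESeq2 none of the 30 was either, against 0.0591% of all genes higher and 0.0328% lower. At an unadjusted edgeR p under 0.05 there were 9 of the 30, all higher, where 5.94% of all genes passed, 3.35% higher and 2.59% lower. The difference was above 0 for 27 of the 30, with a median of 1.43 on the log2 scale against 0.0022 over all genes. The median was 0.69, with 6 of the 30 below 0, without terminal combination replicate 4, and 2.38 without the libraries titled FFT. Only Plin5 had all 4 terminal combination values above all 4 vehicle values, 1 of 34 genes where 1.21% of the genes tested did so, and no gene of the list lay all below, as 1.3% did. Plin5 had 0.256, 2.56, 0.831 and 0.913 CPM in terminal combination replicates 1 to 4, against 4 reads in the whole vehicle group (difference 4.21 ± 1.06, unadjusted edgeR p 0.00199).

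The terminal combination tumours were split between replicates. Adipoq had 0.665, 9.17, 0.880 and 11.5 CPM in terminal combination replicates 1 to 4, against 0.0508 to 2.91 CPM in vehicle tumours. Replicates 2 and 4 were above all vehicle tumours, and replicates 1 and 3 lay within their range (difference 2.08 ± 1.03 on the log2 scale, unadjusted edgeR p 0.0676). Cfd, at 3.53, 24.3, 7.53 and 33.7 CPM, and Plin1, at 0.717, 2.56, 0.293 and 10.1 CPM across the same tumours, had the same 2 tumours above all vehicle tumours. Replicate 4 was the highest terminal combination tumour for 20 of the 33 genes and replicate 2 for 11. Lep reached 18.8 CPM in replicate 4, its highest value in the 12 tumours, against 0.665, 0.893 and 0.0489 CPM in replicates 1 to 3. Slc2a4 had 6.91, 44.0, 12.9 and 30.9 CPM in terminal combination replicates 1 to 4, against 0.356 to 8.43 CPM in vehicle tumours (difference 2.69 ± 0.99, unadjusted edgeR p 0.0193). The muscle sum was 3158, 39457, 10335 and 16426 CPM in terminal combination replicates 1 to 4, also highest in replicate 2 and then replicate 4, and 13 of 14 muscle markers were above 0 in this comparison. Red blood cell markers summed to 384 to 1044 CPM in terminal combination tumours, above all vehicle tumours, and their part in these values was not tested.

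The other genes with an unadjusted edgeR p under 0.05 in this comparison, all with overlapping groups, came from several roles. Plin4 had 2.82, 17.3, 4.16 and 15.4 CPM in terminal combination replicates 1 to 4, against 0 to 3.38 CPM in vehicle tumours (difference 2.77 ± 0.99 on the log2 scale, unadjusted edgeR p 0.0168). Gpd1 had 7.01, 46.8, 11.3 and 26.5 CPM in terminal combination tumours, against 1.68 to 10.1 CPM in vehicle tumours (difference 2.32 ± 0.79, unadjusted p 0.0126). Car3 had 62.5, 295, 157 and 414 CPM in terminal combination tumours, against 5.72 to 89.0 CPM in vehicle tumours (difference 2.53 ± 1.02, unadjusted p 0.029). For these 3 genes only replicate 1 of the terminal combination group lay within the vehicle range. Pnpla2, Lpl, Lep and Dgat1 made up the rest, with differences of 0.81 ± 0.32, 1.53 ± 0.66, 4.17 ± 1.81 and 0.44 ± 0.20. The difference of Lep was 0.93 without terminal combination replicate 4 and 9.48 without vehicle replicate 1, and that of Lpl was 0.47 without terminal combination replicate 4. Lpl had 20.5, 22.9, 16.7 and 107 CPM in terminal combination tumours, against 6.15 to 20.1 CPM in vehicle tumours, so replicate 4 alone was far from the vehicle range.

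Among genes that stayed at an unadjusted edgeR p of 0.05 or more, Cidec had 0.409, 3.45, 0.293 and 13.6 CPM in terminal combination replicates 1 to 4, against 0 to 1.33 CPM in vehicle tumours (unadjusted p 0.0532). Retn had 0.102, 0.953, 0.244 and 2.74 CPM in terminal combination tumours, against 0 to 0.513 CPM in vehicle tumours (unadjusted p 0.0639). Fabp4 had 12.8, 35.9, 2.69 and 54.4 CPM in terminal combination tumours, against 3.61 to 17.4 CPM in vehicle tumours. In each of these genes replicates 2 and 4 were above the vehicle range and replicates 1 and 3 within or below it. Ucp1 had no read, and Cidea reached 0.196 CPM at most in terminal combination tumours. The mean log2 CPM of the 9 shared fat cell genes was 1.70, 3.43, 1.30 and 4.07 in terminal combination tumours, against -0.59 to 2.74 in vehicle tumours. Brown minus shared level was -2.27, -2.32, -0.45 and -2.71 in terminal combination tumours, against -2.77 to 1.15 in vehicle tumours. The groups overlapped in both measures, which were not tested.

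Terminal combination and regressing tumours had the same drugs and differ in the stage of harvest. The fat genes were lower in terminal combination tumours for 24 of the 30, with a median of -0.98 on the log2 scale against 0.01 over all genes. The median was -0.44 without the libraries titled FFT. It rested on regressing replicates 1 and 4, being -0.32, with 20 of the 30 below 0, without replicate 4, and 0.069, with 13 of the 30 below 0, without both, when 11 of the 30 genes changed sign. No gene of the list was called by edgeR (lowest adjusted p 0.692), no gene of the 15650 was (0%), and DESeq2 called none of the 30, against 0.158% of all genes higher and 0.177% lower. At an unadjusted edgeR p under 0.05, Cfd and Pparg were lower and Plin2 was higher, 3 of 30 where 7.02% of all genes passed in either direction. Adipoq and Cfd had all 4 terminal combination values below all 4 regressing values, 2 of 34 genes where 1.51% of the genes tested did so. For Adipoq the highest terminal combination value was 11.5 CPM and the lowest regressing value 13.2 CPM (difference -2.05 ± 1.01). For Cfd they were 33.7 and 33.9 CPM, which is no wider than a change of scaling: with the size factors of DESeq2's method the Cfd values overlapped.

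Pparg had 1.48, 1.31, 1.52 and 3.59 CPM in terminal combination replicates 1 to 4, against 4.08, 4.65, 2.66 and 4.32 CPM in regressing replicates 1 to 4. Replicate 4 of the terminal combination group lay within the regressing range and the other 3 lay below it (difference -0.99 ± 0.38 on the log2 scale, unadjusted edgeR p 0.0226, adjusted p 0.692). Plin2 stood at 226, 206, 149 and 233 CPM in terminal combination tumours, against 121, 153, 169 and 96.7 CPM in regressing tumours, the only gene of the list with an unadjusted edgeR p under 0.05 in this direction (difference 0.59 ± 0.20, unadjusted p 0.0132, adjusted p 0.692). Dio2 ranged from 7.47 to 138 CPM in terminal combination tumours and from 31.1 to 70.4 CPM in regressing tumours. All 14 muscle markers were lower on average in terminal combination than in regressing tumours, with a median of -0.83 on the log2 scale.

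Other genes of the fat cell and of lipid metabolism, taken from lists outside the 34, had medians of -0.15 to 0.54 on the log2 scale in regressing against vehicle tumours. No gene of these lists passed by edgeR, and the counts that follow are DESeq2 calls. DESeq2 called 2.22% of all genes higher in this comparison. Among 22 tested genes of lipid storage and lipolysis, 1 was called higher: Fitm1, a droplet forming protein of muscle, at 57.9, 3.83, 13.7 and 48.8 CPM in regressing and 7.87, 0.929, 4.47 and 5.02 CPM in vehicle tumours. The median of these 22 genes was 0.13 on the log2 scale, and 13 of the 22 were above 0. Among 10 tested genes of brown and beige fat, 1 was called higher: Cox7a1, a respiratory chain subunit also found in muscle, at 38.3, 2.90, 10.9 and 45.9 CPM in regressing and 2.91, 0.572, 2.34 and 1.46 CPM in vehicle tumours. Prdm16, Ebf2 and Zic1, regulators of brown fat identity, were not called. Among 5 genes of white fat, Wfdc21 and Agt (angiotensinogen) were called higher, and the white fat Hox genes Hoxc8, Hoxc9 and Hoxc10 were not.

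Among 9 genes of fatty acid synthesis, 1 was called higher by DESeq2, where 2.22% of all genes were. Mlxipl, the glucose-sensing activator of lipid synthesis, stood at 8.73, 1.97, 2.66 and 6.87 CPM in regressing tumours, against 0.855, 0.143, 0.102 and 0.292 CPM in vehicle tumours, without overlap (difference 3.79 ± 0.75 on the log2 scale, DESeq2 adjusted p 0.000158). Scd2, a desaturase, lay the other way, at 311, 404, 451.9 and 318 CPM in regressing and 549.6, 1316, 561 and 452.1 CPM in vehicle tumours, and was not called (difference -0.95 ± 0.33, DESeq2 adjusted p 0.109). Its closest values, in regressing replicate 3 and vehicle replicate 4, were all but equal. None of 14 other regulators and receptors of fat cells was called, and their median was 0.41 on the log2 scale. Among 8 genes of fat cell precursors, Ly6a was called higher, at 253, 615, 212 and 673 CPM in regressing and 182, 23.2, 185 and 94.2 CPM in vehicle tumours (difference 1.85 ± 0.56, DESeq2 adjusted p 0.0322). Pdgfra, Pdgfrb, Cd34, Dlk1, Dpp4, Pi16 and Dpt, which also mark stromal precursors, were not called. In terminal combination against vehicle tumours DESeq2 called no gene of these lists.

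The genes whose levels across the 12 tumours were most like those of Adipoq were found by the root mean square difference of log2 CPM after centring each gene on its mean. Plin1 came first among all tested genes at 0.654 on the log2 scale and Cidec came next at 0.735. Of the list, Retn (0.840), Pck1 (0.867), Plin4 (0.917) and Cfd (0.974) also came within the nearest 8. Outside the list the nearest were Hp (0.815) and Cyp2e1 (0.849), and others among the nearest were Glb1l2 (1.06), Slc22a3 (1.09), Ces1d (1.10), Rpl3l (1.13), Asb15 (1.13), Tmem45b (1.14) and Smtnl1 (1.15). Hp averaged 186 ± 121 CPM in regressing, 49.7 ± 48.8 CPM in terminal combination and 10.9 ± 5.15 CPM in vehicle tumours (SD, n = 4). At the other end of the list, Cebpb (2.67), Plin2 (2.56) and G0s2 (2.55) were the least like Adipoq. The 12 tumours are the same for all these distances, so they share the libraries and their depth.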

How the data were processed

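The deposited files give unnormalised counts of reads for 54532 Ensembl genes in each library. Per the labels, RNA was purified with an RNeasy kit and libraries were made with a stranded TruSeq mRNA kit. Per the submitters' processing notes, HISAT2 2.2.1, Salmon and DESeq2 1.24.0 were used with the builds mm10 and GRCm38.p6; the counting tool, the strand setting and the annotation are not given in the sources used here. Exons of Plin4, Lipe, Mgll, Adrb3, Acsl1, Gpd1, Cebpa, Cebpb, Dio2 and Adhfe1 overlap a gene on the opposite strand, so reads of the partner could be included if strand was not used. Symbols and positions came from an annotation on GRCm38, in which 54495 identifiers were found.

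Groups were read from the labels' treatment and harvest time. Replicate numbers follow accession order and pair no samples. The closest pair of libraries differed with a chi-square of 52.6 per degree of freedom, so none was a duplicate. Low genes were removed with filterByExpr (minimum count 10, minimum total 15), and the rest were scaled by TMM and tested in edgeR's quasi-likelihood model over all 12 libraries, with Benjamini-Hochberg adjustment over all 15650 genes tested and a threshold of 0.05. DESeq2, another scaling (RLE), no filter, the title ending FFT as a covariate or left out, and each library left out were alternatives. The DESeq2 fits with libraries left out or with FFT as a covariate, and the alternatives for groups that do not overlap, were added after the data were seen. Standard errors of edgeR log2 differences were back-calculated, as the absolute difference over the square root of the F value of its test. CPM used TMM-adjusted library sizes, and log2 CPM of lists used a prior count of 2. The limit for a count of 0 was set at 3 counts over the raw library total. Tools were R 4.3.3, edgeR 4.0.16, DESeq2 1.42.0, Python 3.11.15, pandas 2.3.3, numpy 2.4.6 and matplotlib 3.10.9, and the fits were tested on simulated data.

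All 34 genes were named, with up to 4 genes of each other list by smallest p and the 10 genes nearest to Adipoq, of which 1 is not reported here; remaining genes of short lists are named without values. The members and lists were chosen with earlier results of these data known. Cidea, Adrb3, Aqp7 and Ucp1 were too low to test. A gene could pass the filter through the group in which it was high, so counts over tested genes describe them and carry no support of their own.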

Additional observations from a re-analysis of the deposited data

Results flagged for a closer look

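In 8 of 99 groups of 4 tumours, 1 tumour stood far from the others by Dixon's criterion on log2 CPM, where chance gives about 1 in 20 for normally distributed values without ties. Regressing replicate 4 stood apart for Cidec, at 22.9 CPM against 7.07 to 7.72 CPM in the other regressing tumours. It also stood apart for Dio2, at 70.4 CPM against 31.1 to 31.5 CPM. Terminal combination replicate 4 stood apart for Lpl, at 107 CPM against 16.7 to 22.9 CPM in the other terminal combination tumours. The same tumour stood apart for G0s2, at 24.4 CPM against 2.98 to 3.63 CPM, and for Pparg, at 3.59 CPM against 1.31 to 1.52 CPM. Vehicle replicate 1 was the only vehicle tumour with any read of Lep (1.03 CPM), Cidea (0.171 CPM) and Aqp7 (0.128 CPM), the other 3 being at 0. The last 2 of these values rest on 4 and 3 reads. With the other vehicle tumours tied at 0, any read meets the criterion. The flags of Lep, Cidea and Aqp7 therefore cannot be set against that rate.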

How the results depend on the processing

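edgeR called 0 genes in each comparison with RLE scaling, with no filter, with FFT as a covariate, without the FFT libraries and with each library left out, except 1 gene (Pcsk6, terminal combination against regressing, without terminal combination replicate 4; range 0 to 1). DESeq2 called 477, 14 and 51 genes in the 3 comparisons, 15 of them in the list, all in the first. With a library left out, 5 to 17 were called in the list, 0 without regressing replicates 1 and 4, and 8 with FFT as a covariate. In regressing against vehicle tumours, 3 small differences changed sign. Cebpa (-0.24) was 0.076 with FFT as a covariate, 0.49 without the FFT libraries, and -0.51 to 0.47 with a library left out. G0s2 (-0.49) was 0.65 without the FFT libraries and -0.94 to 0.53 with a library left out. Dio2 (0.37) was -0.11 without the FFT libraries, -0.018 without regressing replicates 1 and 4, and -0.020 to 1.38 with a library left out. The mean level of brown fat genes in vehicle tumours was -0.87 with a prior count of 0.5, against -0.07. Brown minus shared level in regressing tumours averaged -4.13 without Cox8b and Ppargc1a, against -3.03. With a library left out, 14 to 20 genes had regressing values all above vehicle, 1 to 7 had terminal combination values all above vehicle, and 2 to 7 had terminal combination values all below regressing, where RLE scaling left 1. The causes were not tested. No paired analysis was possible because the labels carry no replicate numbers. The limits are 4 tumours a group, few reads of many fat genes in vehicle tumours, and DESeq2 calls that changed with the libraries in the fit.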

Other observations

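The balance between genes of the list differed from tumour to tumour, also within a group. Slc2a4 was 9.83, 0.418, 1.52 and 2.07 times the CPM of Adipoq in regressing replicates 1 to 4, 10.4, 4.79, 14.6 and 2.69 times in terminal combination replicates 1 to 4, and 2.90, 2.29, 7 and 2.69 times in vehicle replicates 1 to 4. In the treated groups, but not in vehicle tumours, Cidec kept closer to Adipoq than Slc2a4 did. It was 0.536, 0.329, 0.421 and 0.606 times the CPM of Adipoq in regressing replicates 1 to 4. In terminal combination replicates 1 to 4 it was 0.615, 0.377, 0.333 and 1.19 times that of Adipoq. In vehicle tumours Cidec was 0.456, 2.14 and 0.276 times Adipoq in replicates 1, 2 and 4 and at 0 in replicate 3, where Adipoq rested on a single read. The log2 difference from Adipoq in vehicle tumours had an SD of 1.11 for Cidec and 0.226 for Slc2a4. These ratios compare counts of genes of different length, so their change between tumours can be read and their size cannot.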
